A study of Mus musculus with 12 samples.

Results

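The glutathione peroxidase family of the mouse, Gpx1 to Gpx8, was followed across the first 3 segments of the epididymis, in mice whose efferent ducts had been ligated and in controls. All 8 genes were found by matching the identifiers of the count tables to GENCODE release 21 symbols, out of 55536 genes counted. Of these 8, 7 passed the filter on low counts and were tested among 19213 genes, and Gpx2 did not pass. The study measured polyA RNA from segments 1, 2 and 3, the proximal end of the duct in which sperm mature after leaving the testis. In ligated animals a suture closed the efferent ducts just before the caput, so that luminal fluid from the testis no longer entered the duct. Control epididymides were not ligated, and the mice of every group were wild type. There were 12 libraries in 6 groups, with 2 libraries per group, each a pool from 2 mice, and 1 library of each group was sequenced in batch 3017 and the other in batch 3097. The age of the mice, the time between ligation and collection, and whether the segments of a batch came from the same animals were not given in the sources used here.

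Glutathione peroxidases reduce hydrogen peroxide or lipid hydroperoxides to water or alcohols, most of them with glutathione as the electron donor. The catalytic residue is selenocysteine in some members, inserted at an in-frame UGA codon, and cysteine in the others. In the epididymis the enzymes are known both inside the epithelial cells and in the lumen, where secreted forms meet the sperm.

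The stretches of coding sequence around the catalytic codon are shown because they hold the residue, selenocysteine or cysteine, that differs within the family. Each runs 5′ to 3′ on the coding strand, with the catalytic codon in capitals, and was read from GENCODE release 21 transcripts on GRCm38.
Gpx1: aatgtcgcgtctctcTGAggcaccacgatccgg
Gpx2: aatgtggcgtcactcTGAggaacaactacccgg
Gpx3: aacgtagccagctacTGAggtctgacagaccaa
Gpx4: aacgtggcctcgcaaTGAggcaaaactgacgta
Gpx5: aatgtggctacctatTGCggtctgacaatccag
Gpx6: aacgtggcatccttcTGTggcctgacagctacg
Gpx7: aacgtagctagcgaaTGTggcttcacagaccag
Gpx8: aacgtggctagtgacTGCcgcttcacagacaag
The annotation marks the TGA as selenocysteine in 4 members, Gpx1 to Gpx4. In the other 4 members the in-frame cysteine codon that best matched the Gpx3 window was TGC in Gpx5 and Gpx8 and TGT in Gpx6 and Gpx7. Over the 30 flanking bases, the Gpx3 window differed from that of Gpx7 at 7 positions, from Gpx5 at 8, from Gpx8 at 10 and from Gpx6 at 11, from Gpx4 at 13, and from those of Gpx1 and Gpx2 at 17 each. The codon was number 73 of the coding sequence in Gpx3, Gpx5 and Gpx6, all 3 of which encode secreted enzymes. On GRCm38 the Gpx5 codon lies at chr13:21291336-21291338 on the minus strand, and the Gpx3 codon at chr11:54907256-54907258 on the plus strand.

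Library totals ran from 30485275 to 42313728 counts, which puts 3 counts at 0.07 to 0.103 CPM (counts relative to the library total, scaled by trimmed mean of M values). Markers of the epithelium were abundant in every library. Those of proximal principal cells summed to 9619.4 CPM or more, but not every listed gene was abundant. In the library with that lowest sum, ligated segment 1 of batch 3017, Adam7 made up 8697.6 CPM. Lcn5 was at 544.9 CPM there, Cst8 at 2.68, Rnase10 at 1.66 and Lcn9 at 0.956. In Lcn8, a lipocalin of the initial segment, the control segment 2 library of batch 3017 lay between control segment 1 and the other control segment 2 library. In Adam7 and Crisp1 of the same marker list it did not. Lcn8 was at 3318.1 CPM in that library and at 209.9 in the other control segment 2 library. It was at 13688.4 and 14222.7 in control segment 1 and at 94.6 and 102.1 in control segment 3. Member values for ligation in segment 2, for control segment 2 minus 1 and for the difference in ligation between segments 1 and 2 are therefore also given without that library. In bulk tissue, fewer cells of a type and less RNA per cell cannot be told apart.

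The 8 members covered a wide range of abundance. Per kb of exon, the mean over the 12 libraries was 26086.7 CPM for Gpx5, 279.3 for Gpx3, 104.9 for Gpx8, 100.4 for Gpx4, 91.3 for Gpx1, 31.6 for Gpx6, 14.3 for Gpx7 and 0.00894 for Gpx2. Gpx8, Gpx4 and Gpx1 were close to each other, and their order changed when the longest coding transcript replaced the union of exons; the other 5 kept their places. Gpx5 alone supplied 95.82% to 98.87% of the family's counts in each library, and the whole family 2.56% to 6.13% of all counts. Gpx2, best known from the intestinal epithelium, had 13 counts in all 12 libraries together, of which 10 were in the ligated segment 2 library of batch 3017. The gene lies within an intron of Fntb on the opposite strand, and no difference in Gpx2 was testable at this depth.

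**Figure D1:**
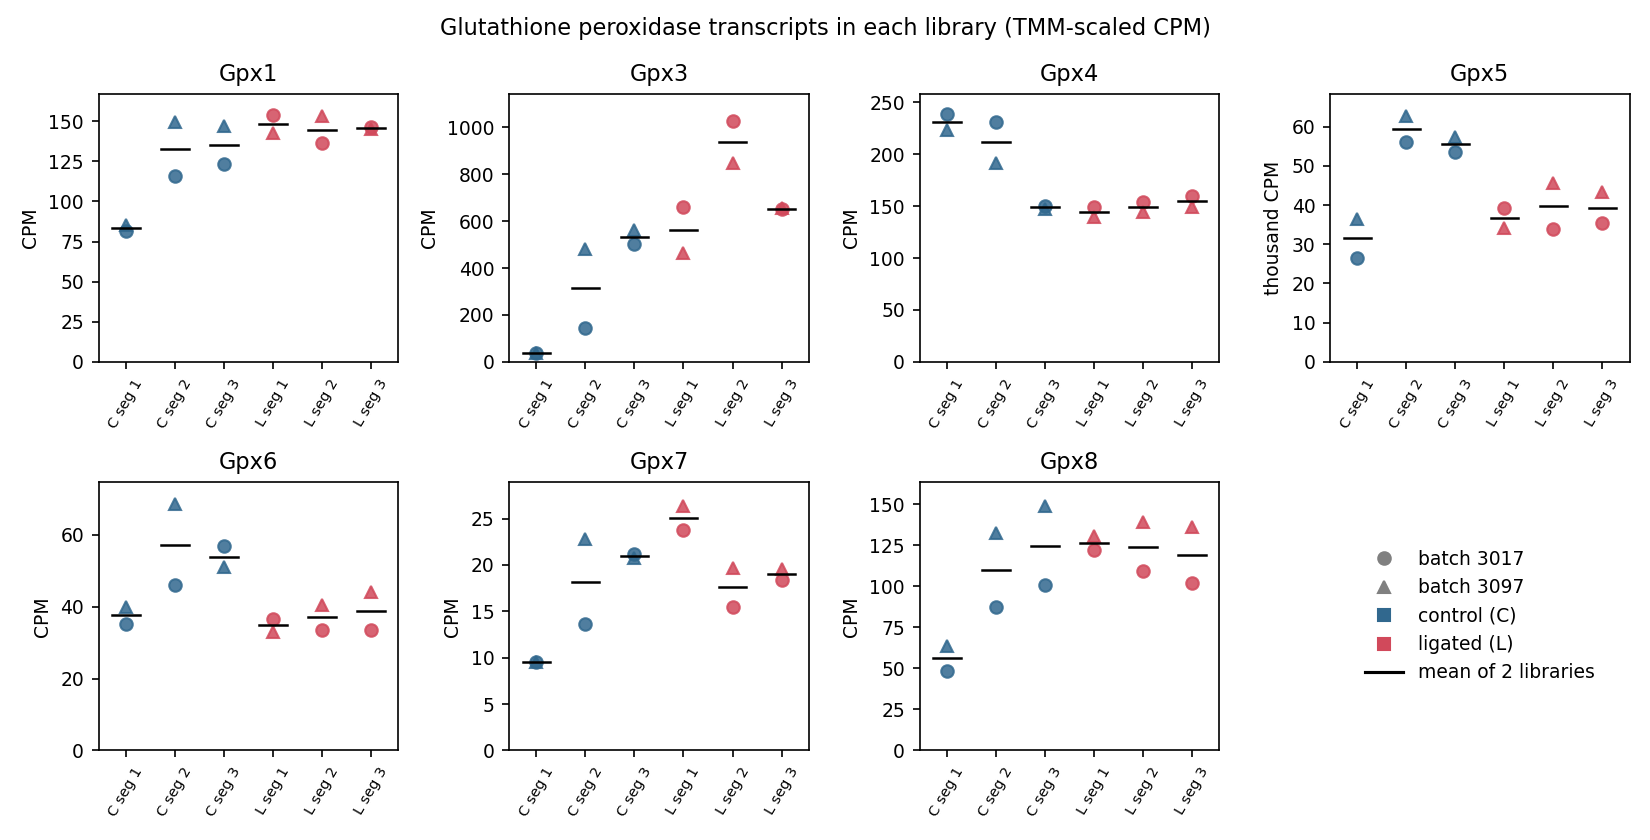
Scaled CPM of the 7 glutathione peroxidases that passed the filter, by group (C control, L ligated, seg segment), with 1 point per library, circles for batch 3017 and triangles for batch 3097, and a bar at the mean of 2 libraries. Gpx1, Gpx3, Gpx7 and Gpx8 are lowest in both control segment 1 libraries, while the group mean of Gpx4 is highest there.

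In segment 1, 4 of 7 tested members rose (Gpx1, Gpx3, Gpx7 and Gpx8), Gpx4 fell, and Gpx5 and Gpx6 did not pass an adjusted p of 0.05 by edgeR's quasi-likelihood test with Benjamini-Hochberg adjustment. Segment 1 was also where the transcriptome as a whole changed, with 24.4% of all tested genes called higher and 24.4% called lower (48.7% in either direction). Scaling by library totals alone put 67.5% of the called genes on the higher side, against 4684 of 9363 otherwise, and called 6 of 7 members, with Gpx5 as the addition. The median log2 fold change was 0.84 over the 7 members and 0.03 over all genes tested. In segment 2, Gpx4 alone was called, as lower, against 6.98% of all genes called lower, 2.84% called higher and 9.83% called in either direction. At an unadjusted p under 0.05 there were 4 members in segment 2, and DESeq2 called 4 (Gpx3, Gpx4, Gpx5 and Gpx6). The segment 2 counts rested on single libraries: of 1 member and 1888 genes called, 3 members and 650 genes were called without the control segment 2 library of batch 3017, and 2 and 4066 without that of batch 3097. Without the ligated segment 2 library of batch 3017 they were 0 and 148, and without that of batch 3097 they were 0 and 331. Of the genes called in segment 2, 28.9% were higher, and 59.9% under library totals alone. In segment 3 none of the 7 was called, with 1.72% of all genes called (0.312% higher and 1.41% lower). At an unadjusted p under 0.05 there were 2 members in segment 3 (Gpx5 and Gpx6, both lower), and DESeq2 called 1 of them, Gpx5 (-0.50 ± 0.16, adjusted p = 0.045).

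Members also differed along the control duct. Compared with control segment 1, 6 of 7 were higher in control segment 2 and 6 were higher in control segment 3, where 22.1% and 26.2% of all genes were called higher, and 43.2% and 51.2% in either direction. In control segment 3, Gpx4 was lower than in segment 1, where 25.0% of all genes were called lower. Between control segments 3 and 2 only Gpx4 was called, as lower (0.916% of all genes called lower, 0.874% higher and 1.79% in either direction; library totals alone moved the share of higher among all called from 48.8% to 61.4%). The comparison of ligated with control segment 1 shares the 2 control segment 1 libraries with both of these, so the values of each are given side by side and not as separate evidence.

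Among ligated segments, 0 of 7 members were called in any of the 3 pairs, where 1.3%, 0.0% and 5.8% of all genes were called for segment 2 minus 1, segment 3 minus 2 and segment 3 minus 1. Of all genes, 0.0885% were called higher and 1.21% lower for segment 2 minus 1, and 1.72% higher and 4.08% lower for segment 3 minus 1. The log2 differences of the 7 members there ran from -0.53 to 0.73. At an unadjusted p under 0.05, Gpx7 passed in the pairs of segments 2 and 1 (-0.52 ± 0.17) and 3 and 1 (-0.40 ± 0.17), and DESeq2 called 0 members in any of these pairs. Over all genes, 1344 passed at an unadjusted p under 0.05 for segment 3 minus 2, and DESeq2 called 32. Of the genes called for segment 3 minus 1, 29.7% were higher, and 15.9% under library totals alone. When only the compared groups entered the fit, Gpx3 (0.76 ± 0.11, adjusted p = 0.0028) and Gpx7 (-0.51 ± 0.10, adjusted p = 0.017) passed between ligated segments 2 and 1, and Gpx3 (-0.51 ± 0.08, adjusted p = 0.0045) between 3 and 2.

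**Figure D2:**
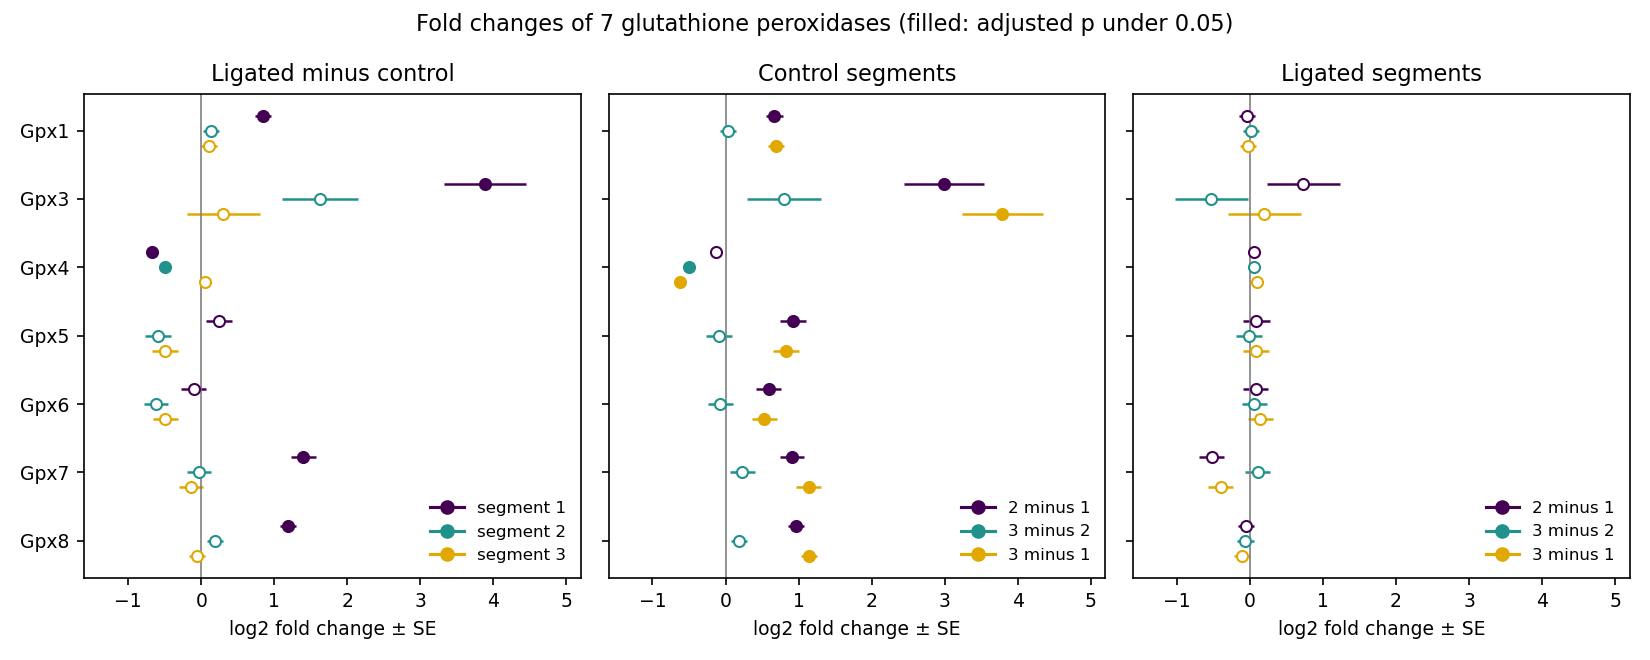
Log2 fold change with its standard error for 7 members from the fit over all 12 libraries, filled where the adjusted p was under 0.05. Ligation in segment 1 gives 5 filled points and the ligated segments 0. The control pairs give 6 for segment 2 minus 1, 1 for segment 3 minus 2 and 7 for segment 3 minus 1.

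Gpx5 encodes the secreted cysteine form made by the caput epithelium, and it was the gene with the most counts in every library. It lies at chr13:21286429-21292731 on the minus strand of GRCm38 and has 5 exons. Gpx5 stood at 26620.8 and 36408.6 CPM in control segment 1, at 55959.8 and 62621.0 in control segment 2, and at 53535.8 and 57396.9 in control segment 3. In ligated tissue it was at 39347.6 and 34125.8 CPM in segment 1, 33798.5 and 45515.2 in segment 2, and 35349.8 and 43348.9 in segment 3. All 6 ligated libraries lay below the 4 control libraries of segments 2 and 3, and they overlapped with control segment 1.

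The rise of Gpx5 along the control duct passed the test, by 0.92 ± 0.18 (log2 fold change ± SE) from segment 1 to 2 (adjusted p = 0.0032) and by 0.83 ± 0.18 from segment 1 to 3 (adjusted p = 0.0041). Without the control segment 2 library of batch 3017 the first of these was 0.89 ± 0.21 (adjusted p = 0.0062), and with only the compared groups in the fit it missed the threshold (0.94 ± 0.49, adjusted p = 0.21). Without the control segment 1 library of batch 3017, the rise from segment 1 to 3 missed it (0.68 ± 0.24, adjusted p = 0.06). Ligation gave 0.24 ± 0.18 in segment 1 (adjusted p = 0.29), -0.59 ± 0.18 in segment 2 (adjusted p = 0.069; -0.56 ± 0.21 without the control segment 2 library of batch 3017) and -0.50 ± 0.18 in segment 3 (adjusted p = 0.22), and none passed. Within batches the segment 1 values had opposite signs, 0.56 and -0.09. For segment 2 they were -0.73 and -0.46, and for segment 3 they were -0.60 and -0.40.

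The Gpx5 values were sensitive to scaling and to the tool. Scaling by library totals alone, which also shifted the median of all genes in segment 1 from 0.03 to 0.24, gave 0.45 ± 0.17 for segment 1 (adjusted p = 0.047). DESeq2 called the fall of Gpx5 in segment 2 (-0.60 ± 0.16, adjusted p = 0.0024), as did the fit without a low-count filter (-0.58 ± 0.15, adjusted p = 0.043).

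Gpx6, a neighbour of Gpx5 that is known from the olfactory epithelium and carries cysteine in the mouse, followed Gpx5 at a far lower level. It lies at chr13:21312125-21319624 on the plus strand, beyond the pseudogene Gm11270, which had at most 2 counts in any library. Gpx6 was at 35.3 and 39.9 CPM in control segment 1, 46.0 and 68.5 in control segment 2, and 56.8 and 50.9 in control segment 3. The ligated libraries held 36.6 and 33.0 CPM in segment 1, 33.5 and 40.5 in segment 2, and 33.4 and 44.1 in segment 3. As with Gpx5, the 6 ligated libraries lay below the 4 control libraries of segments 2 and 3.

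Gpx6 rose by 0.59 ± 0.17 from control segment 1 to 2 (adjusted p = 0.022) and by 0.53 ± 0.17 from 1 to 3 (adjusted p = 0.029). Without the control segment 2 library of batch 3017 the first was 0.80 ± 0.17 (adjusted p = 0.0059). That call was lost without either control segment 1 library and without the control segment 2 library of batch 3097 (0.33 ± 0.18, adjusted p = 0.20). The other was lost in 4 of 12 fits that left out a library, with the lowest value 0.31 ± 0.19 (adjusted p = 0.24) without the control segment 3 library of batch 3017, and without the batch term. Ligation gave -0.10 ± 0.17 in segment 1 (adjusted p = 0.65), -0.62 ± 0.17 in segment 2 (adjusted p = 0.055) and -0.49 ± 0.17 in segment 3 (adjusted p = 0.22). In segment 2 the fall of Gpx6 passed with DESeq2 (-0.63 ± 0.19, adjusted p = 0.011) and without the control segment 2 library of batch 3017 (-0.83 ± 0.17, adjusted p = 0.041). The segment 1 value turned to 0.10 under scaling by library totals.

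For each 1000 counts of Gpx5 there were 0.822 to 1.33 counts of Gpx6 across the 12 libraries. The longest run of identical bases shared by the 2 transcripts was 35, and how reads in such stretches were assigned was not given in the sources used here. The nearest expressed genes on either side did not pass in a ligation comparison: Trim27 gave -0.06, 0.21 and 0.14 (adjusted p = 0.55, 0.13 and 0.43) and Zscan12 gave -0.03, -0.20 and -0.01 (adjusted p = 0.84, 0.26 and 0.98) in segments 1, 2 and 3. Library totals alone turned Trim27 to 0.14 and Zscan12 to 0.17 in segment 1 and called Trim27 in segment 2 (0.34 ± 0.08, adjusted p = 0.029). Olfr1367, the next gene after Gpx6, had 0 counts.

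Gpx3 encodes the secreted selenocysteine form known from blood plasma, and it varied more than any other member, 24.4-fold between the lowest and highest group means. The gene lies at chr11:54902453-54910377 on the plus strand. Gpx3 was at 38.5 and 38.4 CPM in control segment 1, 146.0 and 482.9 in control segment 2, and 500.9 and 563.0 in control segment 3. After ligation it was at 661.0 and 464.8 CPM in segment 1, 1026.6 and 847.1 in segment 2, and 651.6 and 655.1 in segment 3. Every ligated library lay above both control segment 1 libraries, and ligated segment 2 was the highest group. The 2 control segment 2 libraries were 3.31-fold apart.

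Ligation raised Gpx3 in segment 1 by 3.89 ± 0.56 (14.8-fold, adjusted p = 0.0021), with 4.09 in batch 3017 and 3.58 in batch 3097. Along the control duct it rose by 2.99 ± 0.55 from segment 1 to 2 (adjusted p = 0.0067) and by 3.79 ± 0.56 from segment 1 to 3 (adjusted p = 0.0021). The segment 1 to 2 value was 3.70 ± 0.18 without the control segment 2 library of batch 3017 (adjusted p = 1.1e-06) and 1.85 without that of batch 3097, and it missed the threshold with only the compared groups (2.80 ± 0.56, adjusted p = 0.056) or without the control segment 1 library of batch 3097 (2.89 ± 0.81, adjusted p = 0.053).

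In segment 2 the ligation value of Gpx3 was 1.63 ± 0.52 and missed the threshold (adjusted p = 0.11). It was 2.81 within batch 3017 and 0.81 within batch 3097. It passed without either control segment 2 library, at 0.90 ± 0.19 (adjusted p = 0.041) without that of batch 3017 and 2.75 ± 0.21 (adjusted p = 4.8e-05) without that of batch 3097, and with DESeq2 (1.63 ± 0.52, adjusted p = 0.017). In segment 3 it was 0.30 ± 0.50 (adjusted p = 0.81).

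Marker genes of clear and narrow cells are given beside Gpx3. Of the 5 listed (Foxi1, Atp6v1b1, Atp6v0d2, Rhcg and Car12), 4 were called higher with ligation in segment 1 and 0 lower. The exception, Atp6v0d2, went from 125.0 and 133.2 CPM in control to 97.7 and 108.0 in ligated segment 1 and was not called. From control segment 1 to 2, where Gpx3 also rose, 4 were called higher and Atp6v0d2 lower. Their summed level was 214.2 and 297.9 CPM in control segment 1, 654.6 and 969.5 in control segment 2, 1060.6 and 1151.9 in control segment 3, and 974.6 to 1197.2 in the 6 ligated libraries. Of the 9 proximal principal cell markers, 8 were called lower with ligation in segment 1. The exception, Lcn5, went from 52.9 and 87.1 CPM in control to 544.9 and 387.7 in ligated segment 1 and was not called. The 9 summed to 54103.6 and 61945.0 CPM in control segment 1 against 9619.4 to 21266.9 in ligated libraries. Lcn5 was 10896.0 CPM of the highest ligated sum. From control segment 1 to 2, 3 of the 9 were called lower and 0 higher. Macrophage and dendritic cell markers summed to 93.5 and 102.8 CPM in control segment 1 and to 148.6 and 156.2 in ligated segment 1, with 2 of 6 called higher. Most of that rise was Cd68, from 4.86 and 7.45 CPM to 58.2 and 49.4, while Csf1r went from 36.7 and 36.8 to 26.8 and 32.1. From control segment 1 to 2, 2 of the 6 were called higher and 4 lower. The part of these cell types in the Gpx3 values was not tested.

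**Figure D3:**
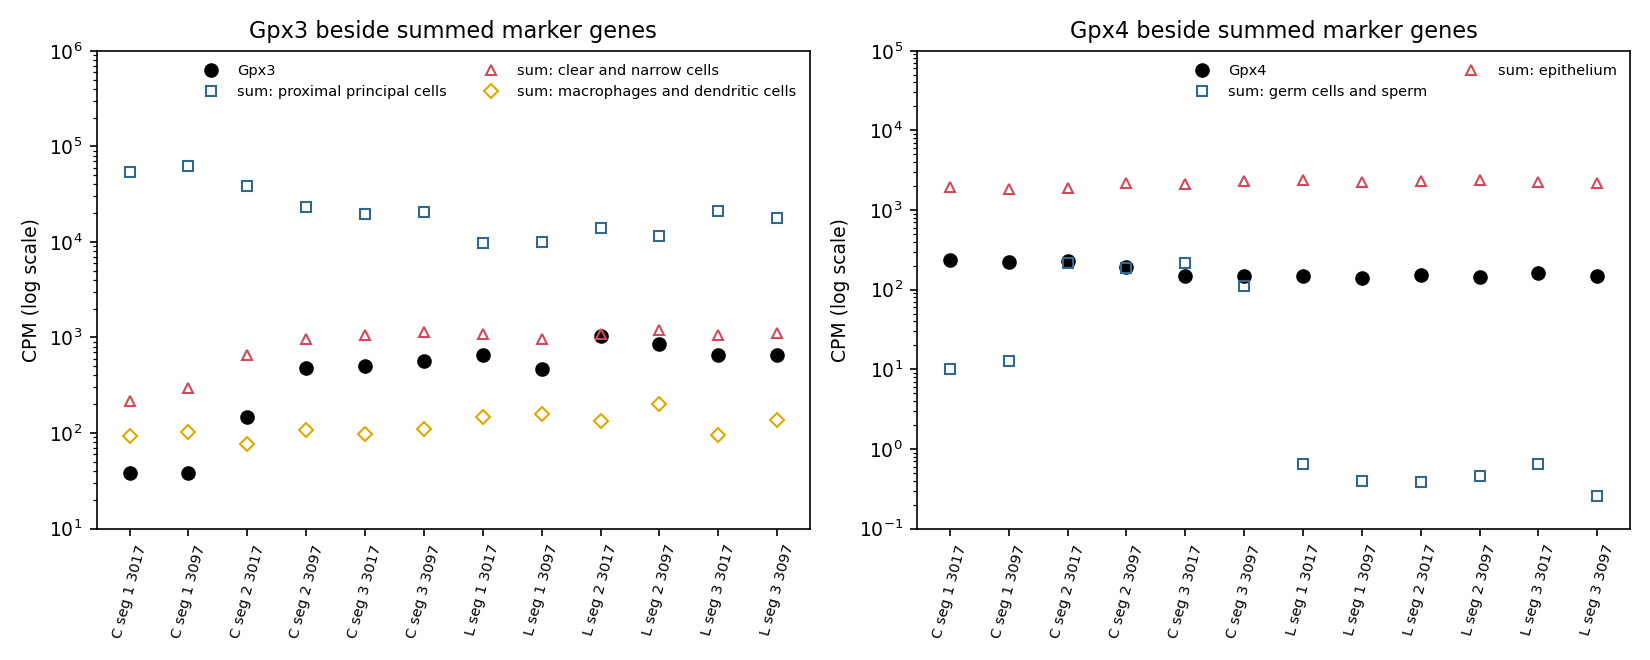
Left, Gpx3 (filled circles) beside summed marker genes of proximal principal cells, clear and narrow cells, and macrophages and dendritic cells in each library; right, Gpx4 beside summed markers of germ cells and of epithelium, all in CPM on log axes. Gpx3 and the sum of the clear and narrow cell markers are lowest in control segment 1. The sum of the germ cell markers is at 0.655 CPM or less in all 6 ligated libraries, while Gpx4 is at 139.1 CPM or more there.

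Gpx4 reduces lipid hydroperoxides within membranes and is also a structural protein of the sperm midpiece. It was the only member called lower with ligation in the edgeR fit over all 12 libraries with the low-count filter. Gpx5 and Gpx6 were also lower in segments 2 and 3, but that fit did not call them. The gene lies at chr10:80047166-80056439 on the plus strand. Gpx4 was at 238.3 and 223.3 CPM in control segment 1, 231.0 and 191.7 in control segment 2, and 149.9 and 147.7 in control segment 3. After ligation it was at 149.0 and 139.1 CPM in segment 1, 154.3 and 144.4 in segment 2, and 159.6 and 149.6 in segment 3. The 4 control libraries of segments 1 and 2 lay above the other 8, which spanned 139.1 to 159.6 CPM.

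Ligation lowered Gpx4 in segment 1, by -0.68 ± 0.08 (adjusted p = 0.00014), with -0.68 in each batch. In segment 2 the change was -0.50 ± 0.08 (adjusted p = 0.0069), -0.58 in batch 3017 and -0.41 in batch 3097, and in segment 3 it was 0.05 ± 0.08 (adjusted p = 0.78). The segment 2 call held without the control segment 2 library of batch 3017 (-0.39 ± 0.09, adjusted p = 0.036). It was lost without either ligated segment 2 library (-0.49 ± 0.12, adjusted p = 0.11 and -0.49 ± 0.11, adjusted p = 0.068) and with only the compared groups (-0.50 ± 0.11, adjusted p = 0.14).

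In control tissue Gpx4 fell from segment 1 to 3 by -0.63 ± 0.08 (adjusted p = 0.00019) and from 2 to 3 by -0.50 ± 0.08 (adjusted p = 0.028). The latter was lost in 5 of 12 fits that left out a library, including the fit without the control segment 2 library of batch 3017 (-0.42 ± 0.09, adjusted p = 0.083), and without the batch term (-0.51 ± 0.11, adjusted p = 0.10). From segment 1 to 2 the value was -0.13 ± 0.08 (adjusted p = 0.21), and -0.24 ± 0.09 (adjusted p = 0.052) without the control segment 2 library of batch 3017.

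Germ cell and sperm transcripts were lost with ligation, with all 7 markers (Prm1, Prm2, Tnp1, Tnp2, Odf1, Akap4 and Smcp) called lower in each of the 3 segments. Their sum was 10.1 and 12.6 CPM in control segment 1, where the group mean of Gpx4 was highest, and 216.4 and 186.5 in control segment 2. It was 214.8 and 109.8 in control segment 3, where Gpx4 was as low as in ligated tissue, and 0.253 to 0.655 in the ligated libraries. The Gpx4 transcript shares a run of 314 identical bases with the pseudogene Gpx4-ps2, whose counts were 4.69% to 6.63% of those of Gpx4, so a part of the reads of either gene is uncertain.

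Gpx1, the widely expressed cytosolic selenoenzyme that reduces hydrogen peroxide, rose with ligation in segment 1, where Gpx4 fell. It lies at chr9:108338903-108340343 on the plus strand. Gpx1 was at 81.3 and 85.4 CPM in control segment 1, 116.0 and 149.5 in control segment 2, and 123.3 and 146.8 in control segment 3. Ligated libraries held 153.8 and 142.8 CPM in segment 1, 136.2 and 153.1 in segment 2, and 146.2 and 145.0 in segment 3. Control segment 1 was below all others, and the other 5 groups overlapped.

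Ligation raised Gpx1 in segment 1 by 0.84 ± 0.11 (1.78-fold, adjusted p = 0.00027), 0.92 in batch 3017 and 0.74 in batch 3097. The values for segments 2 and 3 were 0.13 ± 0.11 (adjusted p = 0.49; 0.00 ± 0.11 without the control segment 2 library of batch 3017) and 0.11 ± 0.11 (adjusted p = 0.64). Along the control duct Gpx1 rose by 0.67 ± 0.11 to segment 2 (adjusted p = 0.0013; 0.80 ± 0.11 without the batch 3017 library of control segment 2) and by 0.69 ± 0.11 to segment 3 (adjusted p = 0.00072). Per kb of exon, Gpx4 was 2.45 and 2.19 times as high as Gpx1 in control segment 1. In ligated segment 1 that ratio was 0.81 and 0.814.

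Gpx7 and Gpx8 are cysteine forms of the endoplasmic reticulum, where they use peroxide in the oxidative folding of proteins. Gpx7 (chr4:108400390-108406961, minus strand) was at 9.51 and 9.50 CPM in control segment 1, 13.6 and 22.8 in control segment 2, and 21.2 and 20.7 in control segment 3. In ligated tissue it was at 23.8 and 26.4 CPM in segment 1, 15.5 and 19.7 in segment 2, and 18.4 and 19.6 in segment 3. Control segment 1 was the lowest group and ligated segment 1 the highest, and neither overlapped with any other group.

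Ligation raised Gpx7 in segment 1 by 1.40 ± 0.17 (2.63-fold, adjusted p = 0.0002), 1.28 in batch 3017 and 1.43 in batch 3097. In segments 2 and 3 the values were -0.03 ± 0.17 (adjusted p = 0.93; 0.10 under library totals alone and -0.31 ± 0.13 without the batch 3017 library of control segment 2) and -0.14 ± 0.17 (adjusted p = 0.71). Gpx7 rose from control segment 1 to 2 by 0.91 ± 0.17 (adjusted p = 0.0029; 1.19 ± 0.13 without the batch 3017 library of control segment 2) and to 3 by 1.14 ± 0.17 (adjusted p = 0.00058).

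Gpx8 (chr13:113042753-113046410, minus strand, within an intron of Cdc20b on the other strand) was at 48.4 and 63.7 CPM in control segment 1, 87.6 and 132.2 in control segment 2, and 100.5 and 148.8 in control segment 3. After ligation it was at 122.3 and 130.3 CPM in segment 1, 109.0 and 138.9 in segment 2, and 101.8 and 136.1 in segment 3. Gpx8 was higher in batch 3097 in all 6 groups, by 0.40 on the log2 scale (adjusted p = 0.0081), and it was the only tested member that differed between batches. Control segment 1 did not overlap with any other group.

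Ligation raised Gpx8 in segment 1 by 1.19 ± 0.11 (2.29-fold, adjusted p = 5.1e-05), 1.33 in batch 3017 and 1.03 in batch 3097. It gave 0.19 ± 0.11 in segment 2 (adjusted p = 0.30; 0.09 ± 0.13 without the batch 3017 library of control segment 2) and -0.06 ± 0.11 in segment 3 (adjusted p = 0.84). From control segment 1 it rose by 0.96 ± 0.11 to segment 2 (adjusted p = 0.00022; 1.06 ± 0.12 without the batch 3017 library of control segment 2) and by 1.14 ± 0.11 to segment 3 (adjusted p = 5.5e-05). Fibroblast markers gave mixed values in segment 1: 5 of 6 rose and Pdgfra fell, with sums of 621.2 and 629.8 CPM in control and 216.9 and 333.4 in ligated tissue. The fall of the sum came from Pdgfra alone, at 527.1 and 510.8 CPM in control and 25.9 and 38.6 in ligated tissue. Dcn, the largest of the other 5, went from 34.8 and 46.5 CPM to 102.9 and 160.8. All 5 endothelial markers fell in segment 1, from sums of 97.2 and 90.4 CPM to 23.9 and 33.2. All 4 smooth muscle markers rose, from 242.2 and 308.5 to 395.5 and 511.9. Their part in the Gpx7 and Gpx8 values was not tested.

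The difference of the ligation values between segments was tested directly as an interaction. Between segments 1 and 2, 4 of 7 members differed, all with the higher value in segment 1 (10.3% of all genes called in that direction, 8.2% in the other and 18.5% in either). They were Gpx7 (1.42 ± 0.24, adjusted p = 0.0049), Gpx8 (1.00 ± 0.16, adjusted p = 0.0036), Gpx1 (0.71 ± 0.16, adjusted p = 0.014) and Gpx5 (0.83 ± 0.26, adjusted p = 0.049). The Gpx5 call was lost in 11 of 12 fits that left out a library and in 4 of 8 other settings. Gpx1 was lost in 5 of the 12, and Gpx8 when the batch term was dropped (1.00 ± 0.37, adjusted p = 0.11). Gpx3 missed the threshold (2.26 ± 0.72, adjusted p = 0.083) and passed without the control segment 2 library of batch 3017 (2.96 ± 0.23, adjusted p = 4.1e-05), without that of batch 3097 (1.11 ± 0.24, adjusted p = 0.015) and with DESeq2. Without the control segment 2 library of batch 3017 the other differences were 1.70 ± 0.17 for Gpx7, 1.10 ± 0.16 for Gpx8, 0.84 ± 0.14 for Gpx1, 0.80 ± 0.27 for Gpx5 (adjusted p = 0.053), 0.72 ± 0.22 for Gpx6 (adjusted p = 0.047) and -0.29 ± 0.11 for Gpx4 (adjusted p = 0.087).

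Between segments 1 and 3, 5 of 7 members differed, 4 with the higher value in segment 1 and 1 with the lower (16.1% and 14.7% of all genes, 30.7% in either direction; the share of higher among all called was 52.3%, and 69.0% under library totals alone). Gpx3 (3.59 ± 0.73, adjusted p = 0.014), Gpx7 (1.54 ± 0.24, adjusted p = 0.0017), Gpx8 (1.25 ± 0.16, adjusted p = 0.00065) and Gpx1 (0.72 ± 0.16, adjusted p = 0.0073) were higher, and Gpx4 was lower (-0.73 ± 0.11, adjusted p = 0.0015). The Gpx3 call was lost in 5 of 12 fits that left out a library. Between segments 2 and 3 no member was called, and 0 of 19213 genes were (0.0%). At an unadjusted p under 0.05, 1 member (Gpx4, -0.55 ± 0.11) and 1917 genes passed, and DESeq2 called that member and 165 genes in all.

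Stretches before the RefSeq starts of 2 members are shown because Gpx5 had the most counts in every library and Gpx3 was the member that moved furthest. Both come from the RefSeq promoter table on GRCm38.p6, read 5′ to 3′ on the strand of the gene, without bases annotated as exon, and with a motif match in capitals. The first is chr13:21292732-21292936, minus strand, and the other chr11:54902604-54902771, plus strand. The RefSeq start of Gpx3, at 54902854, differs from the GENCODE gene start at 54902453, so its stretch lies within the gene as GENCODE places it.
Gpx5: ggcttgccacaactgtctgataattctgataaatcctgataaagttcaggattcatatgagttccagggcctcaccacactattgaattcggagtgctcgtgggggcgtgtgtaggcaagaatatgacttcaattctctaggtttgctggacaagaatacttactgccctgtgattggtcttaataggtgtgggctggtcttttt
Gpx3: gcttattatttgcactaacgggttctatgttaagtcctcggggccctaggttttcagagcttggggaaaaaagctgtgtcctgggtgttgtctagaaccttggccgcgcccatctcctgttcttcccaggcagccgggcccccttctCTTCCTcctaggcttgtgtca
Windows from 250 bases before to 50 bases after the start were searched on both strands in all 32851 promoters, and all 8 members had at least 1. The ETS factor motif AGGAAG was in 35.4% of all promoters and in those of 4 members (Gpx1, Gpx3, Gpx4 and Gpx6). The antioxidant response core TGACNNNGC was in 12.4% and in no window of a member. The Gpx5 window held neither motif. In Gpx3 the match in capitals starts 103 bases before the RefSeq start, as CTTCCT, the reverse complement of AGGAAG. Another match in the Gpx3 window, on the strand of the gene, starts 1 base before the RefSeq start and lies outside the stretch shown.

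Transcripts of the PEA3 group of ETS factors, which are known to act on Gpx5, fell with ligation in segment 1. Etv4 fell from 199.4 ± 48.4 CPM (SD, n = 2) to 0.208 ± 0.135 (log2 fold change -9.87 ± 0.82, adjusted p = 0.00024), and Etv5 fell from 887.8 ± 110.2 to 1.81 ± 0.214 (-8.97 ± 1.10, adjusted p = 0.0013). Etv1 fell from 94.6 ± 2.58 to 6.96 ± 0.965 CPM (-3.76 ± 0.54, adjusted p = 0.0021). Gpx5 did not pass in the same comparison. With ligation in segment 2, Etv5 fell (-6.96 ± 1.04, adjusted p = 0.018), as did Etv1 (-2.37 ± 0.53, adjusted p = 0.046). Etv4 did not pass there (-2.5 ± 0.75, adjusted p = 0.094), nor did Gpx5 by edgeR (-0.59 ± 0.18, adjusted p = 0.069). In segment 3 none of these factors passed. The part of these factors in the Gpx5 values was not tested. From control segment 1 to 2, where Gpx5 rose, Etv4 fell to 3.84 ± 3.43 CPM (-5.79 ± 0.62, adjusted p = 0.00088) and Etv1 to 34.1 ± 25.1 (-1.57 ± 0.50, adjusted p = 0.046), while Etv5 was at 224.2 ± 220.0 and did not pass (-2.28 ± 0.80, adjusted p = 0.067).

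For the 3 members whose group means spanned at least 2-fold, the 3 tested genes closest in pattern were found by the root mean square difference of centred log2 CPM over the 12 libraries, among 11209 genes. The libraries share segments, batches and control groups, so these are descriptions. Closest to Gpx3 were Ckb (0.25), Kcnt1 (0.26) and Cdkn1c (0.27). Ckb, creatine kinase B, went from a mean of 16.5 CPM in control segment 1 to 224.4 in ligated segment 1. Closest to Gpx7 were Nedd9 (0.14), Ehf (0.18) and Tlnrd1 (0.18), and closest to Gpx8 were Acat1 (0.10), Acot1 (0.10) and Coq7 (0.11).

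The rest of the glutathione and redox system was read from a list of 87 genes in 5 groups, of which 83 were tested. In segment 1 ligation raised 26 and lowered 17 of the 83, and the median log2 fold change was 0.12, against 0.03 over all genes. Of all genes tested, 24.4% were called higher and 24.4% lower there. In segment 2 it raised 4 and lowered 7 of the 83 (2.84% and 6.98% of all genes), and in segment 3 it raised 1 (0.312%). Under library totals alone the counts were 36 higher and 14 lower in segment 1. The median in segment 1 was -0.05 without the ligated library of batch 3097. Of the list genes with the largest changes, the 15 of segment 1 kept their calls under every alternative tried, and 0 of the 11 of segments 2 and 3 did. In segment 2 the list gave 2 higher and 1 lower without the control library of batch 3017, 9 and 11 without that of batch 3097, and 1 and 0 or 2 and 0 without a ligated library. Of the 10 called genes of segment 2 described next, Glrx, Gsr and Srxn1 kept their calls without the control segment 2 library of batch 3017 (0.88, -0.58 and 0.69), and the other 7 did not.

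Genes of glutathione synthesis and recycling gave 2 higher and 4 lower of 14 in segment 1, where 48.7% of all genes were called in either direction. Mgst3, a microsomal glutathione transferase, rose from a mean of 3.01 to 19.6 CPM (2.75 ± 0.20, adjusted p = 1.9e-05), and Glrx, a glutaredoxin, from 14.1 to 70.2 (2.32 ± 0.12, adjusted p = 5.3e-06). Slc3a2, the heavy chain of the cystine transporter, fell from 970.2 to 479.5 CPM (-1.02 ± 0.10, adjusted p = 6.5e-05). In segment 2 Glrx rose (0.82 ± 0.12, adjusted p = 0.0046), while Gsr, which regenerates the glutathione that these peroxidases use, fell (-0.53 ± 0.08, adjusted p = 0.0046), as did G6pdx, a source of NADPH (-0.51 ± 0.11, adjusted p = 0.022; -0.35, adjusted p = 0.15, without the control segment 2 library of batch 3017). In segment 3 only Glrx5 was called (0.55 ± 0.11, adjusted p = 0.041).

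The gamma-glutamyl cycle, which breaks glutathione down outside and inside the cell, gave 6 higher and 1 lower of 11 in segment 1 (all genes 48.7%). The transferases Ggt1 and Ggt7 moved in opposite directions. Ggt1 rose from a mean of 24.1 to 241.6 CPM (3.36 ± 0.44, adjusted p = 0.0012), and Ggt7 fell from 159.7 to 4.54 (-5.14 ± 0.58, adjusted p = 0.00082). Chac1, which degrades cytosolic glutathione, rose in segment 1 (1.95 ± 0.22, adjusted p = 0.00013) and in segment 2 (0.95 ± 0.21, adjusted p = 0.024), and Ggt7 fell in segment 2 as well (-2.64 ± 0.56, adjusted p = 0.04). Without the control segment 2 library of batch 3017 the segment 2 values were 0.79 for Chac1 (adjusted p = 0.15) and -1.59 for Ggt7 (adjusted p = 0.05), and over its alternatives the adjusted p of Ggt7 reached 0.28.

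Among peroxiredoxins, thioredoxins and other antioxidant enzymes, 7 of 17 rose and 5 fell in segment 1 (all genes 48.7%). Txnrd3, a thioredoxin and glutathione reductase known from the testis, fell from a mean of 71.6 to 12.7 CPM (-2.49 ± 0.15, adjusted p = 7.1e-06). Srxn1, which repairs overoxidised peroxiredoxins, rose from 25.4 to 104.3 (2.04 ± 0.14, adjusted p = 1.3e-05), and Txn1, thioredoxin, fell from 256.0 to 104.4 (-1.29 ± 0.09, adjusted p = 1.5e-05). Prdx5 also rose (0.87 ± 0.13, adjusted p = 0.00045) and Prdx1 fell (-0.45 ± 0.09, adjusted p = 0.0024) in segment 1. In segment 2 Srxn1 (0.93 ± 0.13, adjusted p = 0.005) and Prdx5 (0.46 ± 0.13, adjusted p = 0.048) rose and Prdx1 fell (-0.33 ± 0.09, adjusted p = 0.046); without the control segment 2 library of batch 3017, Prdx5 was at 0.31 (adjusted p = 0.27) and Prdx1 at -0.32 (adjusted p = 0.18).

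Genes of selenoprotein synthesis, which Gpx1 to Gpx4 depend on, and other selenoproteins gave 5 higher and 6 lower of 24 in segment 1 (all genes 48.7%). Lrp2, a receptor that takes up selenoprotein P, rose from a mean of 7.32 to 32.7 CPM (2.16 ± 0.19, adjusted p = 4.5e-05), and Selenow rose from 8.87 to 23.3 (1.41 ± 0.17, adjusted p = 0.00017). Msrb1, a selenoprotein that reduces methionine sulfoxide, fell in segment 1 (-1.70 ± 0.33, adjusted p = 0.0055) and in segment 2 (-2.15 ± 0.34, adjusted p = 0.015), and Trnau1ap, which binds the selenocysteine tRNA, fell in segment 1 (-1.30 ± 0.09, adjusted p = 1.6e-05) and in segment 2 (-0.47 ± 0.09, adjusted p = 0.017). Without the control segment 2 library of batch 3017 their segment 2 values were -1.90 (Msrb1, adjusted p = 0.13) and -0.35 (Trnau1ap, adjusted p = 0.099).

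Oxidant sources and the NRF2 pathway gave 6 higher and 1 lower of 17 in segment 1 (all genes 48.7%) and none in segments 2 and 3. Ncf1, a subunit of the phagocyte NADPH oxidase, rose from a mean of 5.23 to 47.0 CPM (3.14 ± 0.32, adjusted p = 0.00024), Hmox1, haem oxygenase 1, from 3.96 to 11.4 (1.53 ± 0.25, adjusted p = 0.00092), and Cyba, another oxidase subunit, from 5.80 to 12.7 (1.12 ± 0.19, adjusted p = 0.0012).

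**Figure D4:**
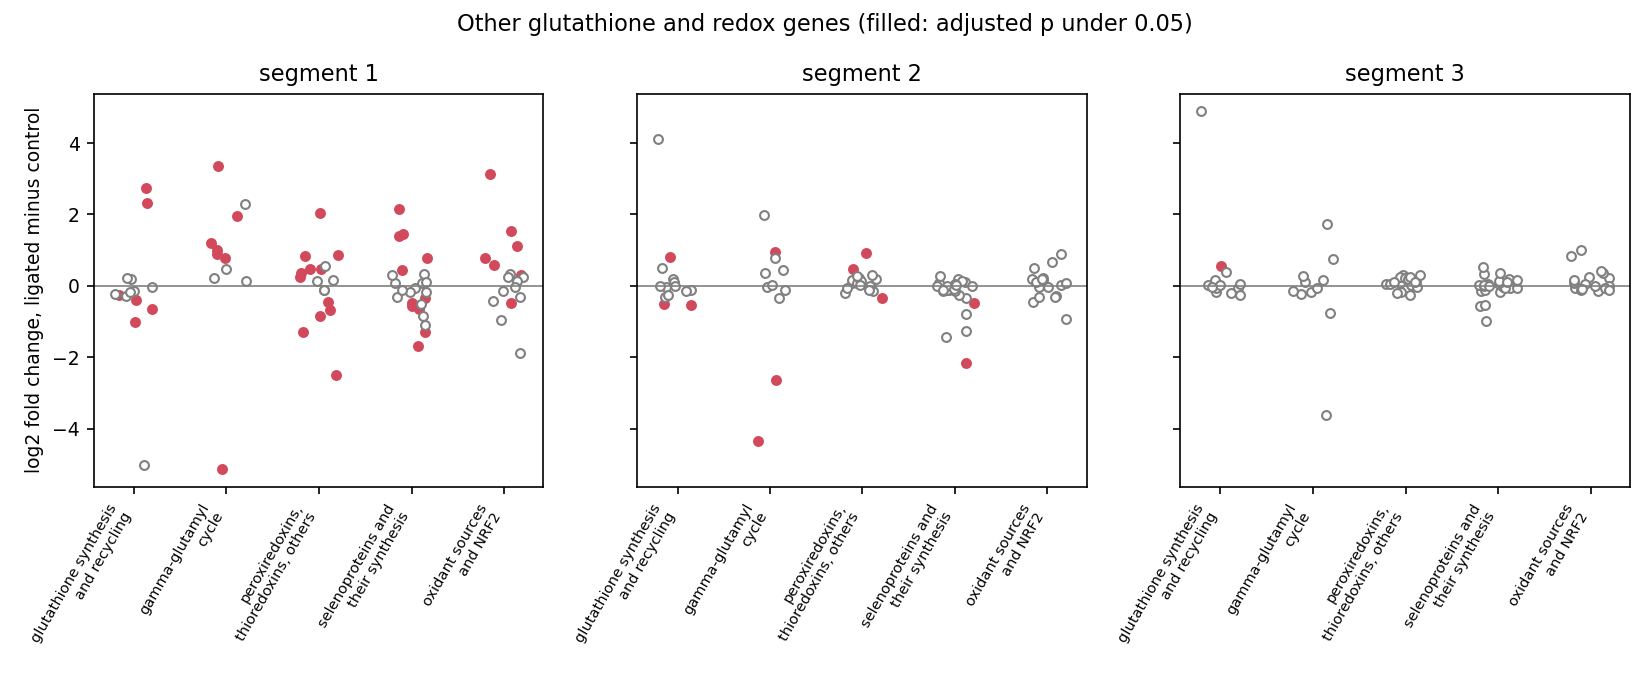
Log2 fold change of ligated against control for the 83 tested genes of the redox list in each segment, by group of genes, filled where the adjusted p was under 0.05. Filled points are 26 above and 17 below 0 in segment 1, 4 above and 7 below in segment 2, and 1 above in segment 3.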

How the data were processed

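The authors deposited raw counts per gene, in whole numbers, for 12 libraries in 2 tables, 1 per sequencing batch. The submitters' processing notes name STAR 2.7.0e, Trim Galore 0.6.0, FastQC and cutadapt, and the build GRCm38. The counting tool, its strand setting and its annotation were not given in the sources used here, although the kit was directional per the labels. All 55536 identifiers matched GENCODE release 21.

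Counts were tested with edgeR 4.0.16 in R 4.3.3 (trimmed mean of M values, filterByExpr with a minimum count of 10, quasi-likelihood F test over all 12 libraries with group and batch as terms, Benjamini-Hochberg adjustment over 19213 genes, threshold 0.05). The script was tested on simulated data, in which directions and fold sizes were recovered and part of the truly changed genes missed the threshold. Fewer of them were called than first required, and the criterion was then replaced by a criterion that was met. The simulation changed a small share of genes and had no batch effect, so it does not check the scaling where many genes change. There were 5 residual degrees of freedom. P-values measure the spread between the pools, which may be partly technical, and count floors cover counting error only. SE is the log2 fold change over the square root of F. CPM used the same scaling, and within-batch ratios a pseudocount of 0.5.

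The batch term is the replicate block, since the study's design text puts 1 library of every group in each batch. Deviations of same-batch libraries correlated at 0.08 to 0.55 across genes, and 1803 genes differed between batches. Gpx1 to Gpx8 were always named. From each redox group up to 3 genes with the largest called change per ligation comparison were named, with at least 5 CPM in the higher group and the same direction in both batches, and the neighbours of Gpx5 and Gpx6 and the genes closest in pattern were added. A further listed gene and its motif are not reported here. Markers came from 14 lists. Members and lists were chosen with earlier results of these data known. Alternatives were other scalings, filters, DESeq2 1.42.0, no batch term, only the compared groups, and leaving out each library; those for the redox list were chosen after seeing the data.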

Additional observations from a re-analysis of the deposited data

Results flagged for a closer look

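The change with ligation differed between segments by a direct test of the difference (edgeR's quasi-likelihood test, adjusted p) for these members. Between segments 1 and 2, the log2 difference was 0.71 ± 0.16 for Gpx1 (adjusted p = 0.014), 0.83 ± 0.26 for Gpx5 (adjusted p = 0.049), 1.42 ± 0.24 for Gpx7 (adjusted p = 0.0049) and 1.00 ± 0.16 for Gpx8 (adjusted p = 0.0036). Between segments 1 and 3 it was 0.72 ± 0.16 for Gpx1 (adjusted p = 0.0073), 3.59 ± 0.73 for Gpx3 (adjusted p = 0.014), -0.73 ± 0.11 for Gpx4 (adjusted p = 0.0015), 1.54 ± 0.24 for Gpx7 (adjusted p = 0.0017) and 1.25 ± 0.16 for Gpx8 (adjusted p = 0.00065). The value of Gpx5 in segment 1 was not called and its values in segments 2 and 3 were below 0, so its difference joins a value above 0 to values below 0. The Gpx5 call was lost in 15 of 20 alternatives. Each of these differences had the same sign in both batches, for example 1.09 and 1.63 for Gpx7 and 1.29 and 0.37 for Gpx5 between segments 1 and 2.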

How the results depend on the processing

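Of 1680 recomputed fold changes of the 7 tested members, 1554 kept their direction and their side of the threshold. All 44 that changed sign belonged to values not called, and 18 of the 29 called values held in every alternative, among them the 5 calls for ligation in segment 1. Each group has 2 pools, and where 1 was left out the remaining library was assumed to vary like the other groups. The cause of the changes was not tested. In segment 2, with 1 member and 1888 genes called, the members called were 2 without a low-count filter, 0 with only the compared groups and 4 with DESeq2, and the genes called were 1162 without the replicate block (the batch term) and 149 with only the compared groups. In segment 3, with 0 members and 331 genes called, DESeq2 called 1 member and 649 genes, and only the compared groups gave 211 genes. Control segment 3 minus 2 went from 1 member to 0 without the replicate block and with only the compared groups. The latter gave 2 members for ligated segment 2 minus 1 and 1 for ligated segment 3 minus 2, both from 0. The ligation difference between segments 1 and 2 went from 4 members to 2 without the block, and that between segments 2 and 3 from 0 to 1 with DESeq2. Calls lost without the block were Gpx4 for control segment 3 minus 2 (-0.51), Gpx6 for control segment 3 minus 1 (0.52), and Gpx5 (0.80) and Gpx8 (1.00) between segments 1 and 2.

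Redox list genes in segment 2, 4 higher and 7 lower, became 8 higher under library totals alone, 4 lower without the replicate block, 0 higher and 1 lower with only the compared groups and 7 higher with DESeq2. In segment 3 the 1 higher became 0 with the stricter filter, without the block and with only the compared groups, and 2 with DESeq2. With 1 library left out, the list gave 20 to 27 higher and 14 to 19 lower in segment 1, 1 to 9 and 0 to 11 in segment 2, and 0 to 2 and 0 to 0 in segment 3.

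Library totals alone turned the sign of Gpx6 in segment 1 (0.10), Gpx7 in segment 2 (0.10), Gpx1 (-0.05) and Gpx4 (-0.01) for ligated segment 3 minus 2, Gpx5 for ligated segment 3 minus 1 (-0.01) and for the ligation difference of segments 2 and 3 (0.01), Trim27 (0.14) and Zscan12 (0.17) in segment 1, and Zscan12 in segment 3 (0.02, and 0.00 without a low-count filter).

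Leaving out 1 library at a time gave 5 to 5 members called in segment 1, 0 to 3 in segment 2 and 0 to 0 in segment 3. All genes called ranged from 6249 to 9913, 148 to 4066 and 70 to 501 in these segments. Members called ranged from 4 to 6, 0 to 3 and 5 to 7 for control segments 2 minus 1, 3 minus 2 and 3 minus 1, and from 0 to 2, 0 to 0 and 0 to 1 for the same ligated pairs. For the ligation difference they ranged from 2 to 5 (segments 1 and 2), 4 to 6 (1 and 3) and 0 to 2 (2 and 3). These uncalled values took both signs with ligation: Gpx5 (-0.01 to 0.49), Gpx6 (-0.32 to 0.10) and Zscan12 (-0.08 to 0.03) in segment 1, Gpx1 (0.00 to 0.30) and Gpx7 (-0.31 to 0.33) in segment 2, and Gpx7 (-0.29 to 0.02), Gpx8 (-0.14 to 0.05) and Zscan12 (-0.05 to 0.05) in segment 3. For control segment 3 minus 2 they were Gpx1 (-0.12 to 0.18), Gpx6 (-0.30 to 0.17) and Gpx7 (-0.07 to 0.57). For ligated segment 2 minus 1 they were Gpx1 (-0.18 to 0.10), Gpx5 (-0.16 to 0.35), Gpx6 (-0.13 to 0.29) and Gpx8 (-0.23 to 0.15). For ligated segment 3 minus 2 they were Gpx1 (-0.06 to 0.09), Gpx5 (-0.13 to 0.12) and Gpx6 (-0.08 to 0.19). For ligated segment 3 minus 1 they were Gpx1 (-0.17 to 0.12), Gpx3 (-0.17 to 0.65), Gpx5 (-0.16 to 0.34), Gpx6 (-0.06 to 0.35) and Gpx8 (-0.29 to 0.09). For the ligation difference of segments 2 and 3 they were Gpx1 (-0.12 to 0.17), Gpx5 (-0.22 to 0.04), Gpx6 (-0.35 to 0.12) and Gpx7 (-0.17 to 0.47).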

Other observations

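The ratio of Gpx5 to Gpx3 differed between groups. Per kb of exon, Gpx5 stood 750.0 and 1030.0 times above Gpx3 in control segment 1, 415.0 and 140.0 times in control segment 2, and 116.0 and 110.0 times in control segment 3. In ligated libraries the ratio was 35.7 to 79.5, so that every ligated library lay below every control library. These ratios compare the levels of 2 genes within a library and rest on the union exon lengths, 1674 bases for Gpx5 and 1813 for Gpx3.

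Ciliated cell markers gave mixed values in segment 1, where 2 of 3 rose and Foxj1 went from 7.66 and 5.06 CPM to 12.9 and 16.5. Dnah5 went the other way, from 6.31 and 8.13 CPM to 3.24 and 5.18, and was not called. Foxi1, a factor of clear and narrow cells, went from 14.1 and 25.6 CPM in control segment 1 to 123.4 and 107.0 in ligated segment 1, while Gpx3 went from 38.5 and 38.4 to 661.0 and 464.8. Atp6v0d2 of the same marker list went the other way, from 125.0 and 133.2 CPM to 97.7 and 108.0, and was not called. T and B cell markers stayed at 3.34 CPM or less in sum, with 1 of 2 tested called higher in segment 1, and adipocyte markers at 0.448 or less, with 0 tested. Basal cell markers gave 2 higher and 2 lower of 4, with sums of 357.6 and 366.1 CPM in control and 306.6 and 426.1 in ligated segment 1. Blood markers gave 2 lower of 4, with sums of 15.4 and 9.77 CPM in control and 10.5 and 4.20 in ligated segment 1. Epithelial markers gave 1 higher of 5, with sums of 1821.5 to 2392.3 CPM in all libraries. Omp and Vil1, listed as genes foreign to the tissue, summed to 56.2 and 46.7 CPM in control segment 1 and 10.8 or less in ligated segment 1, with 1 called lower. Both were thus present in control tissue, and the list does not measure RNA from elsewhere.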
